A study of Mus musculus with 6 samples.

Results

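The 10 genes described here mark the neurite cytoskeleton and neuronal differentiation: Tubb3, Map1b, Map2, Mapt, Dcx, Stmn1, Stmn2, Gap43, Nefl and Nefm. They were taken by symbol from a table of 24391 genes, with no threshold on their values, and 8 of the 10 had enough counts to be tested. The RNA came from Neuro2a, an established mouse neuroblastoma line that can be induced to extend neurites. Its cultures were grown in D-MEM with 10% fetal bovine serum and then moved for 18 h to a medium named D-MEM(-SG) with 10% fetal bovine serum, which both groups received. The control group (3 libraries) was given vehicle, and the other group (3 libraries) was given 5 mM D-serine, an amino acid that acts with glutamate on NMDA receptors. Neither group was given an inducer of differentiation, as far as the labels state, and a single cell line was used. Nothing in the labels says that the 3 libraries of a group came from separate cultures, so p-values measure the spread between these libraries, which may be technical.

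A neurite is built on parallel microtubules, polymers of alpha and beta tubulin, which are bundled and stabilised by microtubule-associated proteins (MAPs). Stathmins bind free tubulin and destabilise microtubules, GAP-43 sits under the membrane of the growth cone, and neurofilaments fill the calibre of mature axons. They are in common use as markers of the passage from a dividing neuroblast to a neuron, with doublecortin and class III beta tubulin early and the neurofilaments later.

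Library depth lay between 32518483 and 40024265 counts. In D-serine replicate 1, long genes had lower values than in the other libraries: its slope of log2 CPM (counts scaled to a library of 1000000) on log2 gene length, relative to the gene means, was -0.0717, against -0.00397 to 0.0356 in the other 5. Markers of the sympathetic neuroblast were present, with 9 of 12 above 5 CPM and a summed level of 1215 to 1253 CPM in control and 1227 to 1287 CPM with D-serine. Among these 12, Th and Dbh were low, at 1.49 and 1.53 CPM in control. Of the neuroblast markers 1 rose, Mycn (log2 fold change 0.15, edgeR adjusted p = 0.0475). Of 10 glial markers only Mbp exceeded 5 CPM, and Aqp4, Olig1 and Olig2 had no count in any library. The summed glial level was 16 to 16.9 CPM in control and 15.7 to 16.7 CPM with D-serine. Of 8 fibroblast markers only Pdgfrb exceeded 5 CPM, Col3a1, Lum and Thy1 had no count, and the sum was 25.2 to 29.4 CPM in control and 19.0 to 25.3 CPM with D-serine. Pdgfrb was the 1 fibroblast marker that fell (log2 fold change -0.37, edgeR adjusted p = 0.037). None of 9 immune and endothelial markers exceeded 5 CPM, Cd3e and Kdr had no count, and the sum was 4.74 to 5.79 CPM in control and 4.49 to 5.58 CPM with D-serine. The part of these marker levels in the results was not tested. In bulk RNA, fewer cells of a type and less RNA per cell cannot be told apart.

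Per kilobase of exon, 7 members were expressed and 3 were close to absent. Stmn1, which encodes stathmin, a protein that sequesters tubulin dimers, led with 454 ± 20.9 CPM per kilobase in control (SD, n = 3, as for all levels here). Map1b, an early axonal MAP, followed at 289 ± 16.8 and Tubb3, the neuron-specific class III beta tubulin, at 284 ± 13.9, and the control ranges of these neighbours overlapped. Gap43 had 131 ± 9.31, Stmn2 (the growth cone stathmin SCG10) 80.6 ± 2.75, Mapt (tau, an axonal MAP) 42.4 ± 1.1 and Map2 (the dendritic MAP) 13.1 ± 0.388 CPM per kilobase, with no overlap between neighbours in this order. By CPM without division by length, Map1b ranked 3 of 13366 tested genes, Tubb3 221, Stmn1 251, Mapt 998, Gap43 1277, Stmn2 1506 and Map2 3727. With D-serine, Tubb3 (320 to 362) lay above Map1b (209 to 301 CPM per kilobase) without overlap, and the order of the other expressed members was kept.

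Doublecortin and both neurofilament genes were at the edge of detection. Nefl, the light neurofilament subunit, had 0 counts in all 3 control libraries, which allows up to 0.0281 CPM over the group, and 0, 2 and 0 counts in D-serine replicates 1 to 3. Nefm, the medium subunit, had 4, 1 and 6 counts in control and 4, 0 and 2 with D-serine, and the groups overlapped. Nefm shares 33.3% of its exonic bases with A230070E04Rik on the opposite strand, and since the strand setting is not given in the sources used here, even these few counts are uncertain. Neither Nefl nor Nefm was tested. The heavy subunit Nefh was not low in the same libraries, at 137 CPM over all 6, nor were alpha-internexin (Ina, 131 CPM) and peripherin (Prph, 899 CPM), the intermediate filament of peripheral neurons. Of the summed counts per kilobase of these 5 neuronal intermediate filament genes, Prph held 83.3% ± 0.168 in control, Ina 10.7% ± 0.124, Nefh 5.99% ± 0.181 and Nefm 0.0057% ± 0.0038. As deposited, Nefl (chromosome 14, 68701941 to 68705794, plus strand) and Nefm (68737602 to 68743061, minus strand) lie side by side, and 31.3% and 18.1% of the 75-base stretches of their GENCODE transcripts also occur in transcripts annotated to the other.

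**Figure D1:**
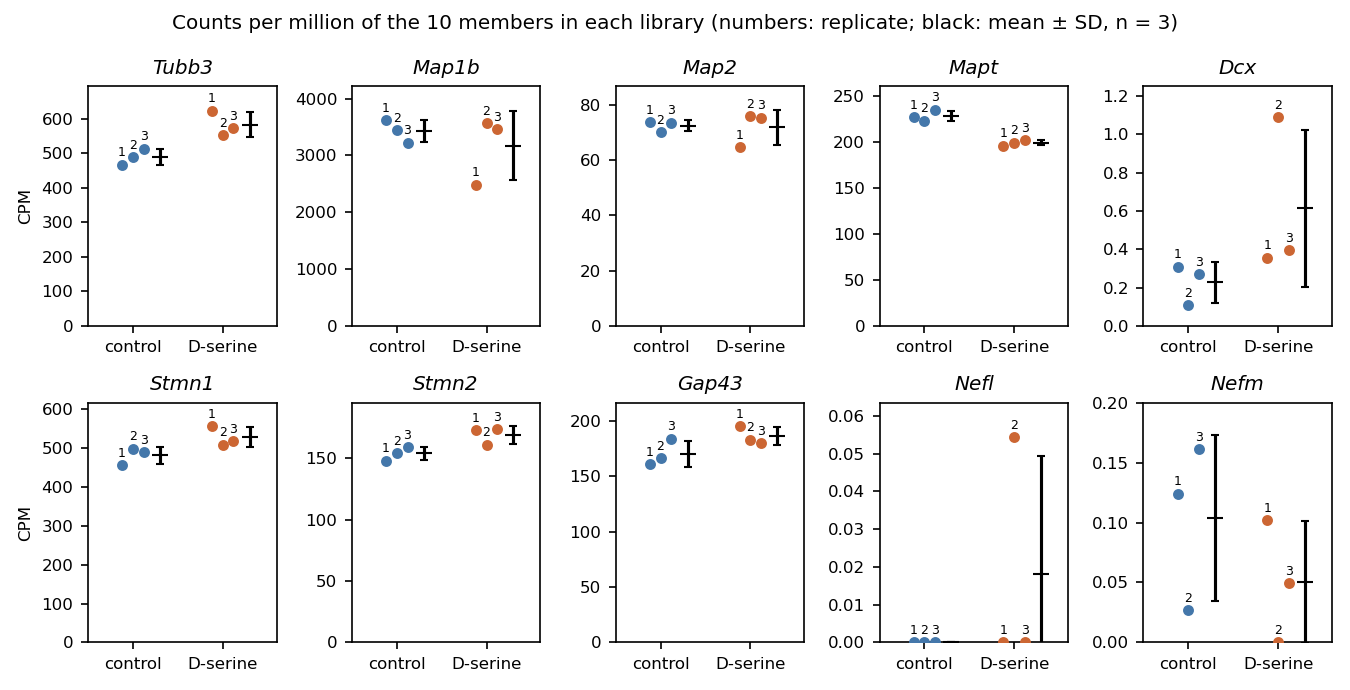
CPM (y axis, from 0, own scale per gene) of the 10 members in each control and D-serine library, numbered by replicate, with the mean and SD beside them. Tubb3 was higher and Mapt lower in all 3 D-serine libraries, Map1b and Map2 were low in D-serine replicate 1, and Dcx, Nefl and Nefm stayed near 0.

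Start-site sequence was matched by symbol in a RefSeq table (GRCm38.p6) that held 4 of the 10 members. The sequences are shown because these 4 span the levels found, from the abundant Map1b and Tubb3 through Map2 to the nearly silent Dcx. Each runs from 250 bases before to 50 after the start, 5′ to 3′ on the gene's strand, with GC boxes read in the forward direction or its reverse (GGGCGG or its reverse complement) in capitals. They lie at chr8:123411303-123411602 (Tubb3, plus strand), chr13:99516553-99516852 (Map1b, minus strand), chr1:66175079-66175378 (Map2, plus strand) and chrX:143933170-143933469 (Dcx, minus strand, the first of 2 overlapping entries).
Tubb3: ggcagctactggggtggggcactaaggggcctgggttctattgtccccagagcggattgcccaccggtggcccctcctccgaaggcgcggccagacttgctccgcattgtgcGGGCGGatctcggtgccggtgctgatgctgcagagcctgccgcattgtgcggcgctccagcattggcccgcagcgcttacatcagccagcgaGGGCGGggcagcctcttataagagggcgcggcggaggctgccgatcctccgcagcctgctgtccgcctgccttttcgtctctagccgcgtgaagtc
Map1b: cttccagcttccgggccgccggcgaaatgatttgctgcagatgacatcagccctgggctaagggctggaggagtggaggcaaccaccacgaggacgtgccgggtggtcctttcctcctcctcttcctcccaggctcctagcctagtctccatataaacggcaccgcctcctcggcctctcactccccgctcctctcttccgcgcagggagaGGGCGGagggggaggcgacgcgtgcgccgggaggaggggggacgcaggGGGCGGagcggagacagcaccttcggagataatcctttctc
Map2: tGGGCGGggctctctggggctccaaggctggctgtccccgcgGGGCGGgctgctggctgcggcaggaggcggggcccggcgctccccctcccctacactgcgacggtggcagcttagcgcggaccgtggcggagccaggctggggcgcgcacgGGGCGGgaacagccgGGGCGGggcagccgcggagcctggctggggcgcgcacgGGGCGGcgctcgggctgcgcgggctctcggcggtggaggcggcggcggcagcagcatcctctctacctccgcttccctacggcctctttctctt
Dcx: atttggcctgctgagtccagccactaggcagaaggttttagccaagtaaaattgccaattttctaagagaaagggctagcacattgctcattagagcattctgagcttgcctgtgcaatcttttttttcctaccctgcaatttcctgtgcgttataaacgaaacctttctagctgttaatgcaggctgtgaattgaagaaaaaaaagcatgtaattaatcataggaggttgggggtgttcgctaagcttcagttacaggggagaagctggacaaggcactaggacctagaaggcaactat

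The windows of the 3 expressed genes were rich in G and C and that of Dcx was not. The GC content was 67.3% for Tubb3, 65.7% for Map1b, 77.7% for Map2 and 43.0% for Dcx, where the median of 32851 windows was 52.7%. The number of CpG dinucleotides was 26, 23, 37 and 3 in the same order, against a median of 7. GC boxes numbered 2 in Tubb3, 2 in Map1b, 5 in Map2 and 0 in Dcx, and 35.7% of all windows held at least 1. The general E-box CANNTG, the binding sequence of proneural factors, was found once in Map1b and in none of the other 3 windows, although 72.3% of all windows held it. No window held CAGCTG (16.3% of all). TATAAA or its reverse complement stood once in Map1b and once in Dcx (13.6% of all), and CCAAT or its reverse complement once in Tubb3 and once in Dcx (37.4% of all). A match is a description of the letters, and its absence says only that they are not in this window.

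With D-serine, Tubb3 rose and Mapt fell, and the other 6 tested members did not pass the threshold (edgeR quasi-likelihood test, adjusted p under 0.05 over all genes). Of all 13366 tested genes 9.74% passed it, 4.84% higher and 4.90% lower, and a count of 2 in 8 is read only as 2 named genes. With each library's trend on gene length removed, 3 members passed (Tubb3 and Stmn2 higher, Mapt lower), where 15.2% of all genes did, 8.38% higher and 6.86% lower. No member passed without control replicate 1 or without control replicate 2, when 0.921% and 0.501% of all genes did. Without control replicate 3 or D-serine replicate 3, 1 member passed, Tubb3, beside 3.34% and 2.15% of genes. Without D-serine replicate 1, 2 members passed, beside 12.5%, and without D-serine replicate 2, 3 members, beside 11.6%. In 5 of the 8 no control library overlapped a D-serine library. These were Tubb3, Dcx, Stmn1 and Stmn2 on the higher side and Mapt on the lower side, where 32.9% of all tested genes were without overlap, 16.2% higher and 16.6% lower. Dcx met the count filter through the D-serine group, so a higher level there was a condition of its being tested. Among the 7 tested members other than Dcx, 3 were without overlap on the higher side and 1 on the lower side. The median log2 fold change was 0.13 over the 8 tested members and also over the 7 without Dcx, beside 0.0053 over all genes.

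Tubb3 (chromosome 8, 125935464 to 125945910, plus strand, 1723 exonic bases) stood at 467, 488 and 514 CPM in control replicates 1 to 3 and, with D-serine, at 624, 552 and 573 CPM. The lowest D-serine library lay above the highest control library. The increase was 19.0% (log2 fold change 0.25, SE 0.052, edgeR adjusted p = 0.0148). Leaving out control replicate 1 or control replicate 2 took the adjusted p to 0.0807 and 0.0719. After removal of the length trend, the log2 fold change was 0.21 (SE 0.036, edgeR adjusted p = 0.000844), and it then stayed past the threshold without either of those libraries (adjusted p = 0.0114 and 0.0121).

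The summed level of the 8 beta tubulin genes overlapped between the groups, at 1601 ± 47.3 CPM per kilobase in control and 1642 ± 79.6 with D-serine (SD over 3 libraries, two-sided exact permutation p = 0.5, where 0.1 is the smallest possible). By the same exact test the sum of the 4 stathmins was 796 ± 32.0 and 888 ± 53.0, and that of the 5 neuronal intermediate filament genes 566 ± 7.54 and 582 ± 10.7 CPM per kilobase (p = 0.1 each). Within the beta tubulin sum, a quantity that library scaling does not touch, Tubb3 took 17.3%, 17.9% and 18.0% in control and 20.9%, 20.2% and 20.7% with D-serine. The shares did not overlap, with means of 17.7% ± 0.377 and 20.6% ± 0.365 (two-sided exact permutation p = 0.1, which no 3 against 3 comparison can go below). Adjusted over the 22 shares computed in 4 families, that p was 0.22. Tubb5, a broadly expressed beta tubulin, held 52.9% ± 0.361 in control and 50.9% ± 0.0404 with D-serine, and Tubb6 held 11.9% ± 0.154 and 10.8% ± 0.0421, both without overlap (exact permutation p = 0.1 each). The level of Tubb5 itself had a log2 fold change of -0.02 (edgeR adjusted p = 0.815). Tubb2a and Tubb2b together with Tubb4b are uncertain, since 43.2%, 30.2% and 29.9% of the 75-base stretches in their transcripts recur in other genes or pseudogenes. For Tubb3 that figure was 0%.

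**Figure D2:**
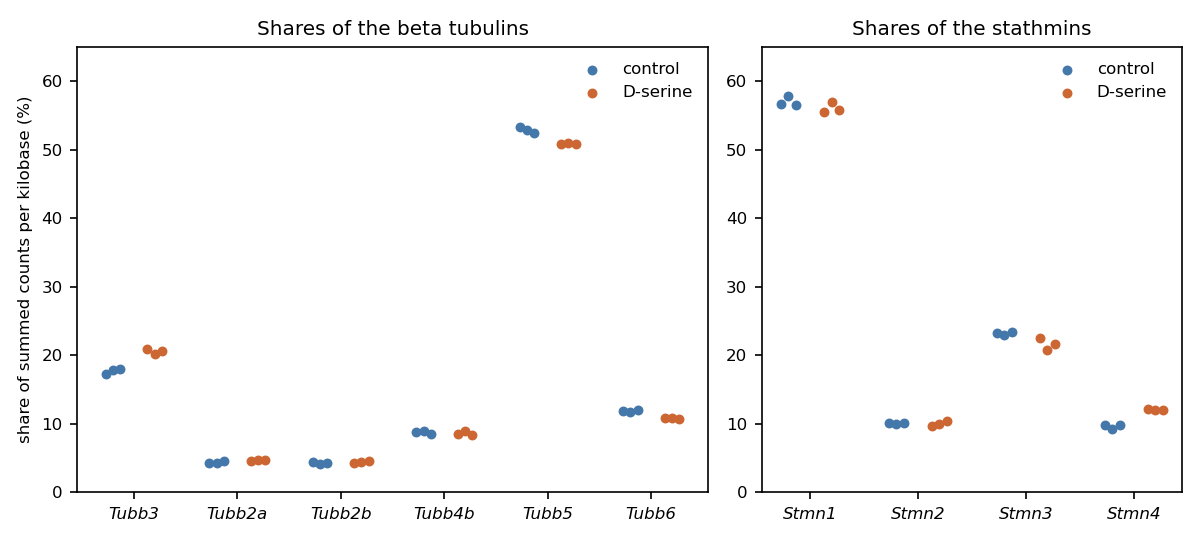
Share (y axis, percent of summed counts per kilobase) of each beta tubulin gene with over 1% (left) and each stathmin (right), 1 point per control or D-serine library. The Tubb3 share was 17.3% to 18.0% in control and 20.2% to 20.9% in D-serine libraries, and that of Stmn4 at most 9.84% in control and at least 12.1% with D-serine.

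Mapt, the gene of tau, which binds and spaces axonal microtubules, was the member that fell. Control libraries had 227, 223 and 235 CPM and D-serine libraries 196, 199 and 202 (chromosome 11, 104092750 to 104193403, plus strand, 5380 exonic bases). Each D-serine library lay below each control library, and the spread within groups was small. Mapt fell by 12.7% (log2 fold change -0.20, SE 0.041, edgeR adjusted p = 0.0156). With the length trend removed the log2 fold change of Mapt was -0.13 (SE 0.035, adjusted p = 0.0173). The call was lost on leaving out D-serine replicate 3 (edgeR adjusted p = 0.0536) or any of control replicates 1, 2 and 3 (0.0658, 0.0654 and 0.0631). With the length trend removed as well, it was lost without D-serine replicate 2 or 3 (0.0687 and 0.0633) or control replicate 2 or 3 (0.0524 and 0.0981), and the log2 fold change went to -0.10 in the last of these.

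The remaining MAPs did not pass. Map1b (chromosome 13, 100191419 to 100286557, minus strand, 11852 exonic bases) had 3622, 3441 and 3225 CPM in control, against 2483, 3570 and 3466 under D-serine. D-serine replicate 1 stood far below the other 5 libraries, among which the groups overlapped. The log2 fold change was -0.11 (95% interval from the SE, -0.31 to 0.08, edgeR adjusted p = 0.493). Without D-serine replicate 1 it was 0.04 (adjusted p = 0.543), and with that library left out and the length trend removed it was 0.11 (adjusted p = 0.00514), an alternative chosen after seeing the data. Map2 (chromosome 1, 66221903 to 66489157, plus strand) had 73.8, 70.0 and 73.6 CPM in control and 64.6, 75.9 and 75.3 under D-serine, again with replicate 1 the low library. Its log2 fold change of -0.01 had an interval of -0.13 to 0.11 (edgeR adjusted p = 0.935).

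Dcx, the doublecortin gene (chromosome X, 140290385 to 140367762, minus strand), had 10, 4 and 10 counts in control and 14, 40 and 16 with D-serine. D-serine replicate 2 held most of the excess. The fitted log2 fold change was 1.41 (SE 0.56, edgeR adjusted p = 0.121), and 0.73 (adjusted p = 0.447) without that library. Among the 5 neuronal MAP genes, Map1b held 80.2% ± 1.03 of the summed counts per kilobase in control and 80.6% ± 2.22 with D-serine, and Dcx 0.00692% ± 0.00317 and 0.0197% ± 0.0111 (SD over 3 libraries, two-sided exact permutation p = 0.7 and 0.1). Mapt held 11.8% ± 0.787 of this sum in control and 11.4% ± 1.9 with D-serine (p = 0.7 in the same exact test). Unlike its CPM, the Mapt share overlapped between the groups. It was highest, at 13.6%, in D-serine replicate 1, where Map1b was low.

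Both stathmins of the list were higher in each D-serine library without passing the threshold. Stmn1 (chromosome 4, 134024235 to 134029758, plus strand, 1060 exonic bases) had 456, 498 and 489 CPM in control and 556, 509 and 518 under D-serine. The closest pair of libraries, control replicate 2 and D-serine replicate 2, lay 498 to 509 CPM apart. Its log2 fold change was 0.13 (interval 0.04 to 0.23, edgeR adjusted p = 0.0906), and 0.06 (adjusted p = 0.245) with the length trend removed. A pseudogene, Gm11223, carries some of its sequence, and 15.4% of the 75-base stretches of its transcripts recur elsewhere. Stmn2 (chromosome 3, 8509527 to 8561604, plus strand, 1904 exonic bases) had 148, 154 and 159 CPM in control and 173, 161 and 174 under D-serine. The groups did not overlap, but control replicate 3 and D-serine replicate 2 were close. Its log2 fold change was 0.14 (interval 0.05 to 0.23, edgeR adjusted p = 0.0717). Stmn2 passed in 7 of 23 alternative fits. Among them were upper quartile scaling (adjusted p = 0.0419), library totals (0.0371) and the length trend removed (0.11, adjusted p = 0.0421). With the length trend removed, the call was lost with the replicate number as a block (edgeR adjusted p = 0.0528). It was also lost there without D-serine replicate 3 (0.182), control replicate 1 (0.157) or control replicate 2 (0.121).

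Gap43, whose product organises the growth cone membrane (chromosome 16, 42248674 to 42340764, minus strand, 1301 exonic bases), had 161, 166 and 184 CPM in control and 195, 183 and 180 under D-serine. Control replicate 3 lay above 2 of the D-serine libraries. The log2 fold change was 0.13 (interval 0.02 to 0.23, edgeR adjusted p = 0.151), and 0.06 (adjusted p = 0.31) with the length trend removed.

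**Figure D3:**
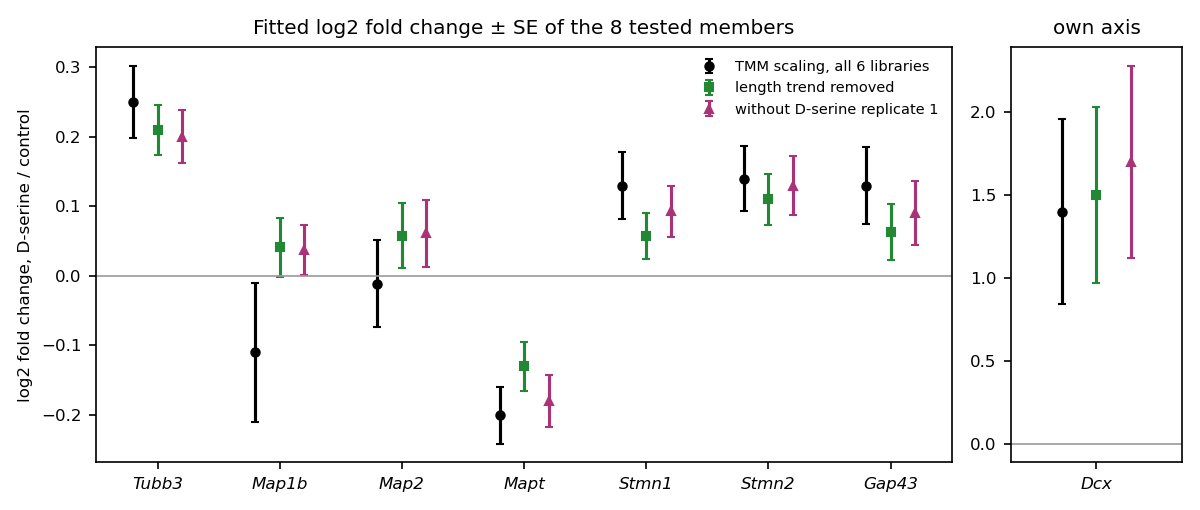
Fitted log2 fold change (y axis, D-serine over control, bars SE) of the 8 tested members with all 6 libraries, with the length trend removed, and without D-serine replicate 1, Dcx on its own axis. Tubb3 stayed between 0.20 and 0.25 and Mapt between -0.20 and -0.13, whereas Map1b moved from -0.11 to 0.04.

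The members differ in length, and length moved with the fold change over all genes. Tested genes within 0.25 log2 units of the length of Tubb3 (1947 genes) had a median log2 fold change of 0.05, those like Stmn1 0.08, those like Gap43 0.06 and those like Stmn2 0.04. For long members the medians were negative, at -0.05 for Mapt, -0.06 for Map2 and -0.17 for Map1b. Relative to genes of like length, Tubb3 lay at 0.21, Stmn2 at 0.11 and Mapt at -0.14, whereas Stmn1 and Gap43 lay at 0.06 and Map1b and Map2 at 0.05. The part that RNA or library quality plays in this trend was not tested.

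**Figure D4:**
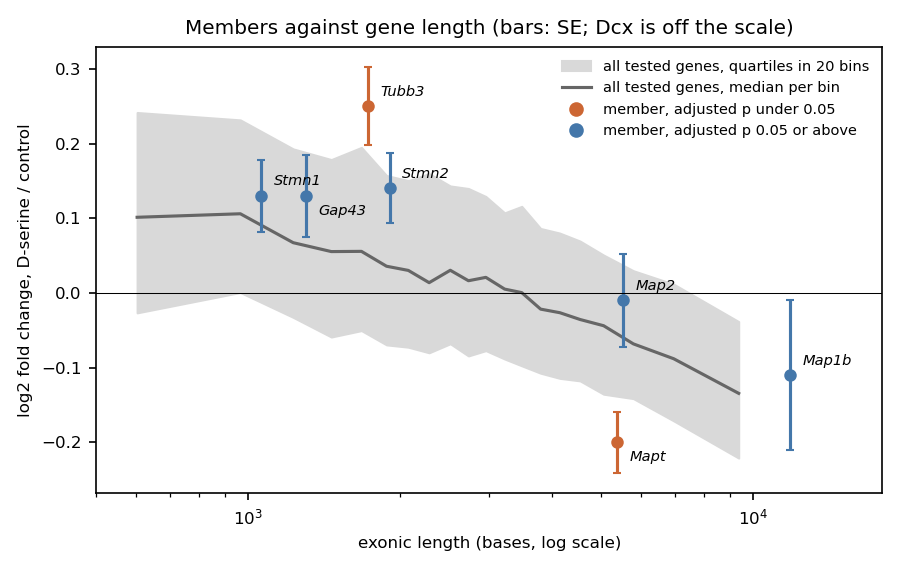
Log2 fold change (y axis) against exonic length (x axis, bases, log scale) for 7 tested members with SE bars, over the median and quartiles of all tested genes in 20 bins of length. The gene median falls with length, and Tubb3 lies above and Mapt below the quartile band.

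The other genes of the neurite cytoskeleton were taken as 10 lists of 216 genes in all, of which 196 were tested. With D-serine, 16 of them rose and 8 fell, which is 12.2% of those tested beside 9.74% of all genes, and their median log2 fold change was -0.03. The count was 3 without control replicate 1, 2 without control replicate 2 (Stmn4 and Katnal1), 12 when control replicate 3 was left out and 9 without D-serine replicate 3, where 0.921%, 0.501%, 3.34% and 2.15% of all genes passed. Leaving out D-serine replicate 1 gave 31 and leaving out D-serine replicate 2 gave 36, beside 12.5% and 11.6% of all genes. With the length trend removed 39 passed, beside 15.2% of all genes. With the trend on GC content removed, an alternative chosen after seeing the data, 19 passed. The share of all genes past the threshold in that fit is not given here. None of the 19 was in the lists of intermediate filaments, CRMP and growth cone proteins or signalling genes of neurite growth.

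Among the tubulins, 1 of 14 tested genes rose and none fell, with a median of 0.03. That gene was Tuba1a, the alpha tubulin of postmitotic neurons, from 970.0 ± 21.1 to 1129 ± 13.0 CPM (log2 fold change 0.22, SE 0.037, edgeR adjusted p = 0.00777). Of the 6 fits that each left out 1 library, Tuba1a kept its call in 4. The call was lost without control replicate 1 (edgeR adjusted p = 0.0557) or control replicate 2. Sequence shared between alpha tubulin genes was not examined. Tubb6 (-0.11, adjusted p = 0.14) and Tubb2a (0.12, adjusted p = 0.141) did not pass. With the length trend removed Tubb6 passed (-0.15, adjusted p = 0.00644). Of 21 tested genes for tubulin folding and modification, 2 rose, the folding cofactors Tbcc (0.44, edgeR adjusted p = 0.0132) and Tbca (0.19, adjusted p = 0.0383). Tbca had 0.12 (adjusted p = 0.0547) with the length trend removed. The deacetylase gene Hdac6 had -0.16 (adjusted p = 0.0585).

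Stathmins and severing factors had 3 of 8 tested genes higher and none lower. Stmn4, the brain stathmin RB3, had 92.0, 93.2 and 98.3 CPM in control and 143, 126 and 130 under D-serine. The groups were far apart, by 40.5% on average (log2 fold change 0.49, SE 0.054, edgeR adjusted p = 0.00145). No alternative of the 23 took its adjusted p above 0.0179. Its share of the 4 stathmins went from 9.64% ± 0.296 to 12.1% ± 0.0902 (two-sided exact permutation p = 0.1), while that of Stmn2 was 10.1% ± 0.159 and 10.0% ± 0.407 (p = 0.8 in the same exact test). Katnal1, a katanin-like severing subunit, rose by 35.9% (0.44, edgeR adjusted p = 0.00599) and passed in each of the 23 alternatives as well. Fignl1 rose by 19.0% (0.25, adjusted p = 0.00924).

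Of the other MAPs, 4 of 30 tested genes fell and none rose, with a median of -0.09. That is 13.3% past the threshold, beside 9.74% of all genes, 4.9% lower. Map7d1, which recruits kinesin to microtubules, fell by 16.3% (log2 fold change -0.26, edgeR adjusted p = 0.00777). The plus-end protein gene Clip1 (-0.25, adjusted p = 0.016) and the minus-end protein gene Camsap1 (-0.20, adjusted p = 0.0217) fell too. The fourth, Map6, was named after its values were seen (-0.17, adjusted p = 0.0468). This list is of long genes, with a median of 5484 exonic bases. With the length trend removed its median was -0.03 and 2 of the 30 genes were lower, beside 6.86% of all genes. Camsap1 then had -0.08 (adjusted p = 0.111).

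Kinases and phosphatases that act on tau and MAPs had 3 of 19 tested genes higher and none lower. Those reported are Cdk5, a kinase of tau and other MAPs, at 0.36 (edgeR adjusted p = 0.0363), and its activator p39 (Cdk5r2), at 0.27 (adjusted p = 0.0187). Cdk5 was a low gene, at 8.58 ± 0.802 CPM in control and 11 ± 0.213 under D-serine, and kept its call in 1 of the 6 fits that each left out 1 library.

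In the intermediate filament list, 1 of 11 tested genes rose, nestin (Nes), a filament of neural progenitors, from 85.0 ± 1.83 to 95.6 ± 3.72 CPM (0.17, edgeR adjusted p = 0.0422). Ina had -0.13 (adjusted p = 0.0991) and shares 492 exonic bases with Nt5c2 on the opposite strand. Among CRMP and growth cone proteins, 1 of 12 tested genes rose, Marcks, an actin and membrane linker (0.15, edgeR adjusted p = 0.0385). Basp1, a growth cone protein related in function to GAP-43, had -0.11 (adjusted p = 0.0974) and Dpysl5 -0.14 (adjusted p = 0.113).

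Actin regulators of the growth cone were mixed, 2 higher and 3 lower of 32 tested. Dbnl rose by 19.0% (log2 fold change 0.25, edgeR adjusted p = 0.0142). The spectrin gene Sptan1 fell from 1076 ± 13.9 to 923 ± 74.7 CPM (-0.22, adjusted p = 0.0223). With the length trend removed Sptan1 had -0.10 (adjusted p = 0.0203). Evl, of the Ena and VASP family, had -0.25 (adjusted p = 0.023) and shares 18.1% of its exonic length with Degs2 on the opposite strand. The remaining lower gene, Enah of the same family, and the other higher one, Coro1b, were named after their values were seen (-0.17, adjusted p = 0.0261, and 0.23, adjusted p = 0.0418). Enah had 0.01 (adjusted p = 0.945) with the length trend removed. General differentiation markers had 1 of 28 tested genes higher, the secretogranin gene Scg2 (0.23, edgeR adjusted p = 0.0142), and 1 lower, the transcription factor gene Ebf3 (-0.22, adjusted p = 0.0142). Among signalling genes of neurite growth, 2 of 21 tested rose, the GTPase gene Cdc42 (0.18, edgeR adjusted p = 0.0279) and the neurotrophin gene Bdnf, the latter from 0.642 ± 0.148 to 1.34 ± 0.219 CPM (1.05, adjusted p = 0.0469). Of the 6 fits that each left out 1 library, Cdc42 kept its call in 2 and Bdnf in 1.

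**Figure D5:**
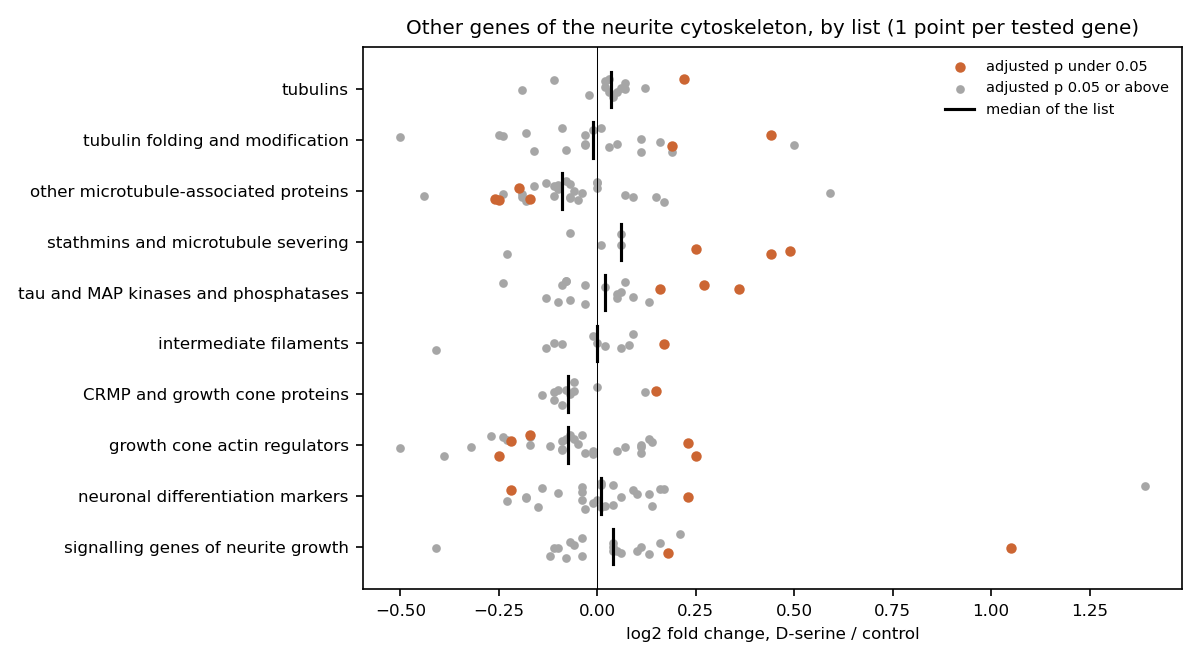
Log2 fold change (x axis) of each tested gene of the 10 lists (rows), filled orange where the adjusted p was under 0.05, with the list median as a black bar. Orange points lie on the higher side for stathmins and severing factors (3 of 8) and on the lower side for other MAPs (4 of 30). Of all tested genes 4.84% passed on the higher side and 4.9% on the lower side.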

How the data were processed

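Poly(A) RNA of 6 Neuro2a libraries was made with a stranded TruSeq mRNA kit, per the labels' protocols. The table deposited by the authors holds raw counts and the exonic length of each gene, in the column layout of featureCounts, per the file headers. HISAT2, featureCounts and Trim Galore are named in the submitters' processing notes; their versions, the strand setting and the treatment of reads with several matches are not given in the sources used here. The notes name GRCm38 and mm10, but 1.36% of 23172 symbols had the start that RefSeq gives in GRCm38, so gene positions are printed as deposited, from a build that is not established. Columns named vehicle were matched to the control titles of the same number.

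Counts were tested with edgeR 4.0.16 in R 4.3.3 over the 13366 genes kept by filterByExpr (about 10 counts in 3 libraries), with TMM scaling, the quasi-likelihood F test and Benjamini-Hochberg adjustment. An SE is the log2 fold change divided by the square root of F. CPM use TMM-adjusted library sizes. Shares were compared by exact permutation. Alternatives were DESeq2 1.42.0, limma-voom (limma 3.58.1), other scalings and filters, a block on the replicate number, a spline (5 degrees of freedom) on length taken out of each library, each library left out, and, added after seeing the data, the trend on GC content and the length trend with each library left out. On simulated data of 13253 genes the test recovered 50% of genes changed by 0.25 and 94% of those changed by 0.5 (log2). The changed genes were drawn from those with a mean above 5 CPM, and no length trend was simulated. Recovery among lower genes or with such a trend was not tested. Named genes were the members and the 3 genes with the smallest p of each list. Some genes that this rule names are not reported here. Members and lists were chosen with earlier results of these data known.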

Additional observations from a re-analysis of the deposited data

How the results depend on the processing

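The 2 members past the threshold were 4 with library totals, 0 with the replicate number as a block and from 0 to 3 when 1 library was left out. With the length trend removed and 1 library left out (chosen after seeing the data) they were from 1 to 5, the 5 without D-serine replicate 1. The 24 genes of the wider lists were 38 with no filter on low counts, 39 with the length trend removed, 37 with that removal and the replicate block, 7 with the replicate block alone and from 2 to 36 when 1 library was left out. For library totals, the filter, the replicate block, and the length trend combined with another change, the share of all genes is not given here. Counts of members and list genes under those settings are therefore not set against all genes. The number of all genes past the threshold, 1302, was 68 without control replicate 2 and 125 without control replicate 1. The members' median log2 fold change of 0.13 was 0.06 with the length trend removed, with or without the block. The gain in the Tubb3 share, 2.85 percentage points, was 2.36 in counts not divided by length.

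Under the replicate block Tubb3 had an adjusted p of 0.0524 and Mapt of 0.0556 in edgeR. The deviations of control and D-serine libraries with the same number correlated at -0.0687, 0.0197 and -0.0187. With 3 libraries a group, these values cannot settle whether libraries of equal number were linked. Only control replicate 2 correlated best with its own number.

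Changes of sign were found in 2 members that did not pass. Map1b had 0.041 with the length trend removed, 0.038 with the block as well, and from -0.21 to 0.037 when 1 library was left out (0.037 without D-serine replicate 1). With the length trend removed and 1 library left out Map1b had 0.0022, 0.0068, 0.027, 0.046, 0.064 or 0.11. Map2 had 0.018 with upper quartile scaling and with library totals, 0.058 with the length trend removed, 0.057 with the block as well, from -0.05 to 0.061 when 1 library was left out (0.061 without D-serine replicate 1, 0.0011 without control replicate 3, 0.0034 without control replicate 1), and 0.036, 0.038, 0.065, 0.074 or 0.096 with the length trend removed and 1 library left out. The cause of these shifts was not tested. Depth limits Dcx, Nefl and Nefm, which had at most 40 counts in a library.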
